A study of Mus musculus with 64 samples.

Results

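The prefrontal cortex (PFC, labelled frontal cortex in the sample records) and the hypothalamus of the same 8 mice were compared 4 weeks after an injection of saline. The members are all libraries labelled saline at 4 weeks, 8 PFC and 8 hypothalamus libraries, which make up 16 of the 64 libraries of the series. The study followed the transcriptional response of these brain regions to psilocybin, and it sampled mice 3 h or 4 weeks after psilocybin or saline. The saline mice described here were male C57BL/6J, 10 weeks old at the start and fed chow, and they received isotonic saline by intraperitoneal injection in place of psilocybin, after sham injections of saline on the preceding days. Each cage held 1 mouse of each treatment and time group, so the cage number links the PFC and the hypothalamus library of a mouse. RNA was taken from dissected tissue and sequenced as stranded poly(A) libraries, and the values are reads counted per gene.

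The frontal part of the cortex is built mostly of glutamatergic projection neurons, which use the vesicular transporter encoded by Slc17a7, and of local GABAergic interneurons. The hypothalamus is a collection of small nuclei whose neurons release peptides such as oxytocin, vasopressin, melanin-concentrating hormone and orexin, and which control feeding, water balance, reproduction, stress responses and sleep. Both regions receive serotonin axons from the raphe nuclei, and the 5-HT2A receptor, the receptor through which psilocin produces its psychedelic action, is best known from cortical pyramidal neurons. A bulk tissue library sums all these cells: where a transcript is lower, fewer cells of a type and less RNA per cell cannot be told apart.

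The PFC libraries held 10547607 to 70361839 counted reads (median 19271125) and the hypothalamus libraries 8061033 to 33947174 (median 17719408). RNA was extracted in 4 pools, hypothalamus of mice 1 to 4, hypothalamus of mice 5 to 8, PFC of mice 1 to 4 and PFC of mice 5 to 8, so no pool held both regions and the region and the pool cannot be told apart in these mice. The first principal component, which separated the regions, carried 72.5% of the variance, and the second carried 6.48% and separated the PFC libraries of mice 1 to 4 from those of mice 5 to 8.

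Several libraries stood apart by transcripts typical of other tissues or regions, and where these transcripts came from was not tested. Hypothalamus replicate 1 held 12094 reads of the pituitary growth hormone gene Gh, against at most 3 in the other 7 hypothalamus libraries, and PFC replicate 1, from the same mouse, held 622, against at most 9. Prl, the prolactin gene, gave 1260 and 54 reads in these libraries, so both libraries of mouse 1 held pituitary transcripts. PFC replicate 3, the deepest library, held more of several hypothalamic transcripts than any other PFC library, with 7.73 CPM of Oxt against at most 0.38 and 15.6 CPM of Irs4 against at most 0.703 (CPM are read counts scaled to library size by TMM). A set of 27 hypothalamic peptide and transcription factor genes passed the 2-fold test and reached at least 5 CPM in hypothalamus. Of these, 10 had their highest PFC value in replicate 3, 8 in replicate 6 and 5 in replicate 5. Their median in replicate 3 was 5.89% of the hypothalamus mean, against 0.289% to 2.78% in the other PFC libraries. Hypothalamus replicate 3 held 2276 CPM summed over 11 choroid plexus genes, against at most 445 CPM in the others. Striatal genes summed to 2927 CPM in PFC replicate 6 and 1250 CPM in PFC replicate 7, against a median of 572 CPM over all 8, and to 967 CPM in hypothalamus replicate 6, against at most 563 CPM. Where leaving out 1 mouse moved the ratio of a described gene by over 1.5-fold or changed its call, the value without that mouse is given beside it, except for Npvf and Six6, whose ratios rest on 1 PFC read each and are given with counting intervals.

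**Figure D1:**
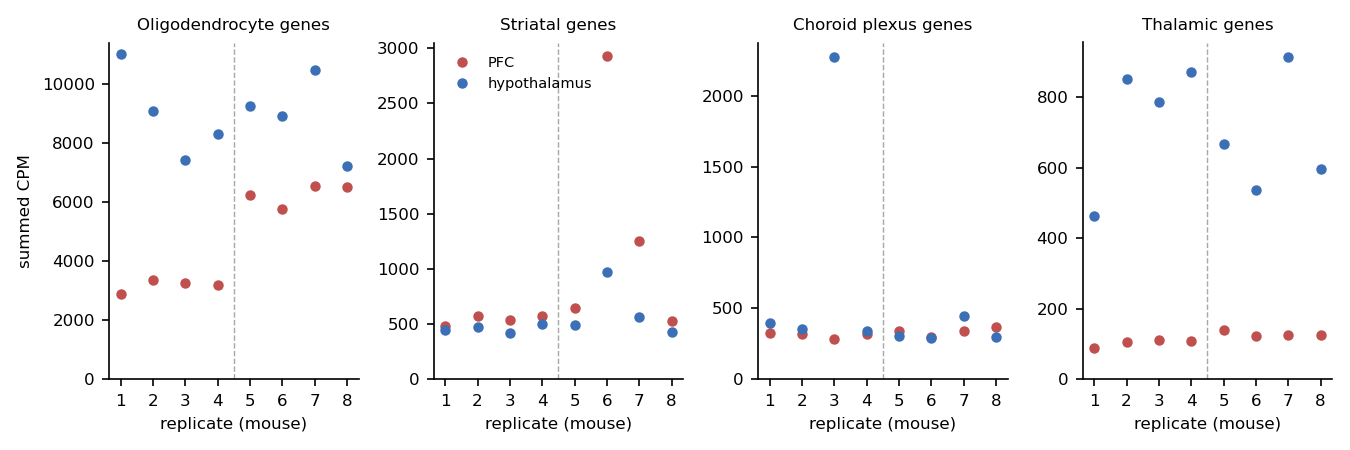
Summed CPM of 4 marker lists (y axes, linear) in each library (x axis, replicate number, the same mouse in both regions); red points are PFC, blue points hypothalamus, and the dashed line separates the extraction pools of mice 1 to 4 and 5 to 8. Oligodendrocyte genes were between 2896 and 3372 CPM in the PFC of mice 1 to 4 and between 5765 and 6545 CPM in the PFC of mice 5 to 8; single libraries stand out for striatal genes (replicate 6) and choroid plexus genes (hypothalamus replicate 3).

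The regions differed in most of the transcriptome, mostly by small folds. Of 17116 genes with enough counts, 10901 (63.7%) passed edgeR's quasi-likelihood test at an adjusted p of 0.05, 5769 (33.7%) higher in PFC and 5132 (30%) higher in hypothalamus. A gene is called here when it passed this test, and a value in brackets after a gene name is its log2 ratio of PFC over hypothalamus. The median fold of the called genes was 1.51, and 72.2% of them differed by less than 2-fold. A stricter test against a 2-fold difference was passed by 2030 genes (11.9%), 1037 in PFC (6.06%) and 993 in hypothalamus (5.8%). In 5319 genes (31.1%) the 8 values of one region lay entirely above those of the other. Large folds were more often on the hypothalamus side, where 170 called genes differed by at least 16-fold, against 93 on the PFC side. Without mice 1, 3, 6 and 7, whose libraries stood apart, 9360 genes were called and 2062 passed the 2-fold test, of which 1790 were among those passing with all mice. Across all genes tested the median log2 ratio of PFC over hypothalamus was 0.03, the level against which the medians of the gene groups are to be read, as their counts are against the shares of all genes just given.

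**Figure D2:**
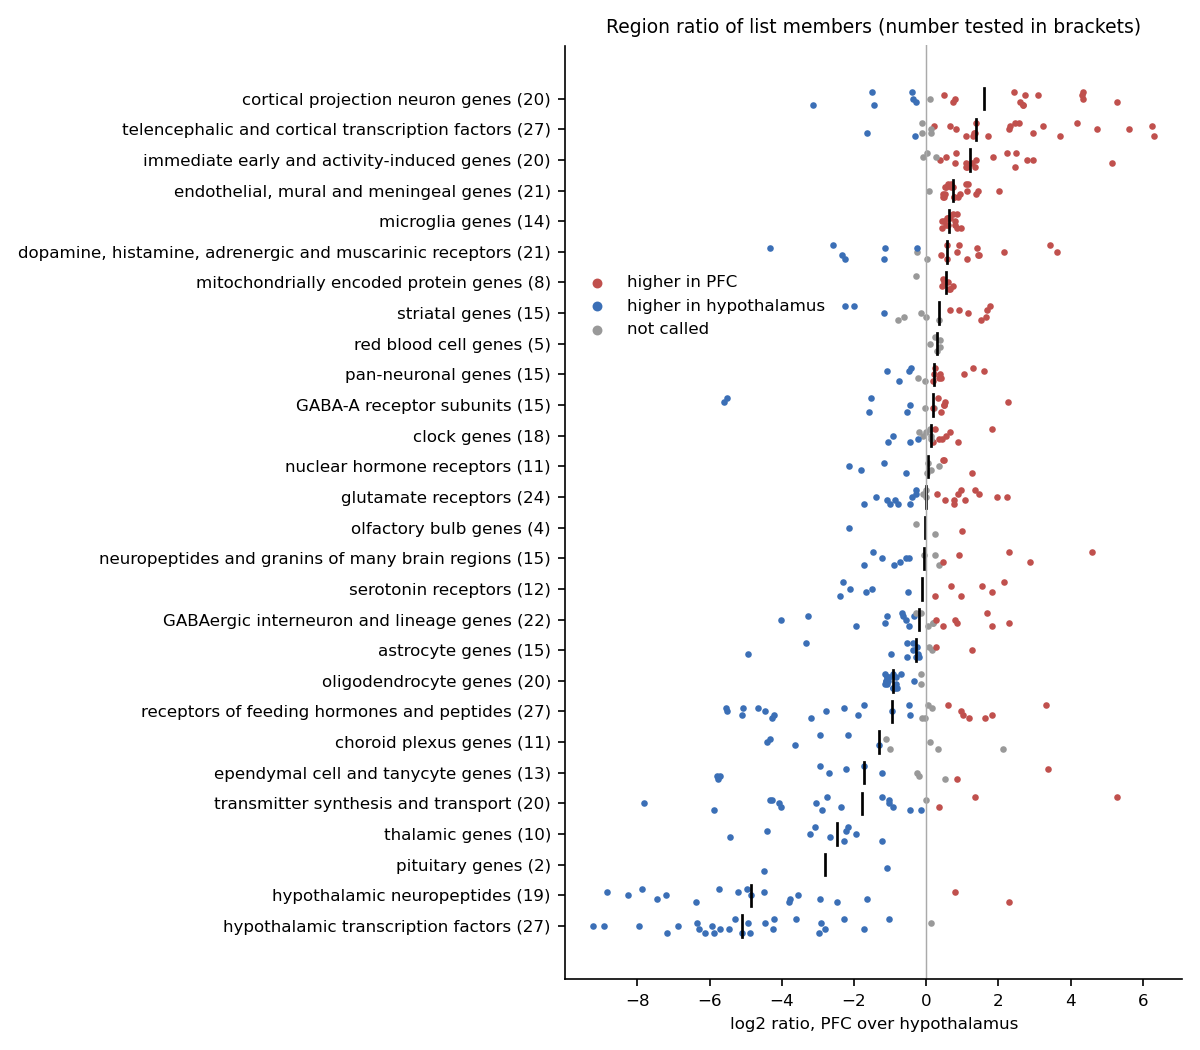
Log2 ratio of PFC over hypothalamus (x axis) for the tested members of each gene list (rows, number tested in brackets), with red points called higher in PFC, blue points called higher in hypothalamus and grey points not called; the black bar is the list's median. Hypothalamic transcription factors (median -5.10) and neuropeptides (median -4.85) lie farthest to the left, and cortical projection neuron genes (median 1.61) farthest to the right.

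Transcription factors of the developing and adult telencephalon marked the cortical libraries. Of 27 such factors tested, 21 were called higher in PFC and 2 higher in hypothalamus, with a median log2 ratio of 1.38, and 19 of the 27 did not overlap between regions. Emx1, a homeobox gene of the cortical progenitor zone and its excitatory neurons, ranged from 9.27 to 16.6 CPM (median 13.8) in PFC and 0.0614 to 0.343 CPM (median 0.0823) in hypothalamus, a log2 ratio of 6.31 ± 0.26 (SE, n = 8 mice, edgeR adjusted p = 2.22e-10). Neurod6, a bHLH factor of differentiated pyramidal neurons, ranged from 45.8 to 105 CPM (median 70.1) in PFC and 0.451 to 1.25 CPM (median 1.05) in hypothalamus, a log2 ratio of 6.25 ± 0.11 (SE, n = 8 mice, edgeR adjusted p = 3.69e-13). In both genes every PFC library was above every hypothalamus library. Neurod2 and Tbr1, further factors of cortical excitatory neurons, had log2 ratios of 5.63 and 4.18. Foxp2 was the main exception, with 7.21 to 24 CPM (median 11.5) in PFC and 29.1 to 48.4 CPM (median 42.3) in hypothalamus and a log2 ratio of -1.64 ± 0.20 (SE, n = 8 mice, edgeR adjusted p = 5.53e-05). Tle4, which marks corticothalamic neurons, was called higher in hypothalamus (log2 ratio -0.32), and Etv1 (0.15) was not called.

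Genes of cortical projection neurons were also mostly higher in PFC, with more exceptions. Of 20 tested, 13 were called higher in PFC and 6 higher in hypothalamus (median 1.61). Within mice 1 to 4 the counts were 13 and 3 (median 1.09). Slc17a7, which loads glutamate into the vesicles of cortical neurons, ranged from 1130 to 1481 CPM (median 1323) in PFC and 11.4 to 86.9 CPM (median 35.4) in hypothalamus, a log2 ratio of 5.28 ± 0.37 (SE, n = 8 mice, edgeR adjusted p = 4.54e-06). Nrgn, a postsynaptic calmodulin-binding protein, and Slc30a3, the zinc transporter of cortical glutamatergic vesicles, had log2 ratios of 4.36 and 4.35. The regions did not overlap in any of these genes. Of the 6 members that went the other way, Nxph4 and Tshz2 had the largest differences. Nxph4, used as a marker of layer 6b, had 0 to 4.39 CPM (median 2.02) in PFC and 12.9 to 25.1 CPM (median 15.5) in hypothalamus and a log2 ratio of -3.14 ± 0.44 (SE, n = 8 mice, edgeR adjusted p = 0.000225). Tshz2, a marker of near-projecting layer 5 neurons, had a log2 ratio of -1.51, but 67.5% of its exonic length lies opposite exons of another gene on the other strand, so its value also rests on strand assignment. Pcp4 (0.11) was not called.

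**Figure D3:**
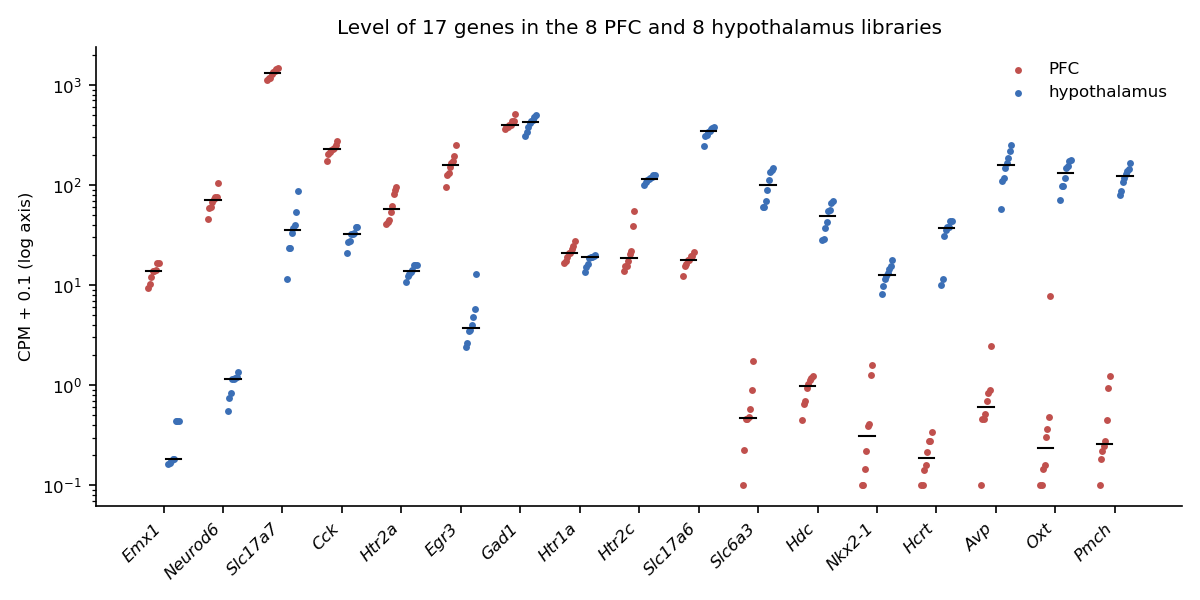
Level of 17 genes (x axis) as CPM + 0.1 on a log axis, with 1 point per library, red for the 8 PFC and blue for the 8 hypothalamus libraries, and a black bar at each median. Cortical genes on the left and hypothalamic genes on the right do not overlap between regions, Gad1 and Htr1a overlap, and 1 PFC library (replicate 3) lies far above the others for Oxt.

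Hypothalamic neuropeptides were higher in hypothalamus by large folds, apart from Npy and Crh. Of 20 on the list 19 had enough counts (Kiss1 had no reads), 17 were called higher in hypothalamus and 2 higher in PFC, and the median log2 ratio was -4.85; 18 of the 19 did not overlap. Without mice 1, 3, 6 and 7 the counts were again 17 and 2 and the median was -6.15. Pmch, the precursor of melanin-concentrating hormone, ranged from 0 to 1.14 CPM (median 0.162) in PFC and 80.1 to 167 CPM (median 123) in hypothalamus, a log2 ratio of -8.84 ± 0.39 (SE, n = 8 mice, edgeR adjusted p = 7.4e-08); 58.1% of its exonic length lies opposite Parpbp on the other strand. Hcrt, the orexin precursor, also made by neurons of the lateral hypothalamus, ranged from 0 to 0.241 CPM (median 0.0881) in PFC and 9.83 to 43.3 CPM (median 36.9) in hypothalamus, a log2 ratio of -8.27 ± 0.19 (SE, n = 8 mice, edgeR adjusted p = 1.76e-12). Avp and Oxt, the vasopressin and oxytocin genes of the magnocellular neurons, are neighbours on chromosome 2 and face each other: Oxt lies at 130576173 to 130577054 on the plus strand and Avp at 130580620 to 130582554 on the minus strand (GRCm38). Avp ranged from 0 to 2.36 CPM (median 0.502) in PFC and 57.5 to 251 CPM (median 157) in hypothalamus, a log2 ratio of -7.45 ± 0.41 (SE, n = 8 mice, edgeR adjusted p = 7.69e-07). Oxt ranged from 0 to 7.73 CPM (median 0.134) in PFC and 71.4 to 180 CPM (median 133) in hypothalamus, a log2 ratio of -7.21 ± 0.83 (SE, n = 8 mice, edgeR adjusted p = 0.000131). The highest PFC value of both came from replicate 3; without mouse 3 the log2 ratio was -8.26 for Avp and -9.81 for Oxt.

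The bases just upstream of the starts of these 4 genes are shown because, of the list members with at least 10 CPM in hypothalamus, they had the largest ratios; the sequences are from RefSeq (GRCm38.p6), 120 bases ending at the base before the annotated start, 5′ to 3′ on the gene's strand, with the letters TATAAA in capitals where present on either strand.
Pmch, chr10:88090952-88091071, plus strand: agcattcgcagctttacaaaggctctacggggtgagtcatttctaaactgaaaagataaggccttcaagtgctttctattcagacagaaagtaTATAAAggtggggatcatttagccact
Hcrt, chr11:100762932-100763051, minus strand: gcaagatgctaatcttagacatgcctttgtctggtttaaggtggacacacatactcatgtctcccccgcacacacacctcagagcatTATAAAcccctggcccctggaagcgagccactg
Avp, chr2:130582589-130582708, minus strand: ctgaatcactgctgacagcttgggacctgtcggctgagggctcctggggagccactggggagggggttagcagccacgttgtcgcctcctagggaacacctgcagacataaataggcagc
Oxt, chr2:130576049-130576168, plus strand: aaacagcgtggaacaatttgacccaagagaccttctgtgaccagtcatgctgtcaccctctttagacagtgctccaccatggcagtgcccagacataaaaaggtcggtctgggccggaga
The letters TATAAA were found within 250 bases upstream of 5 of the 17 list members that had a RefSeq promoter (29.4%, Pmch, Hcrt, Pomc, Ghrh and Npvf), of 8.29% of the 12289 tested genes that had one and of 14.3% of all 27025 genes in the RefSeq set. Neither the Avp nor the Oxt window holds them. Other motifs were searched in the same promoters. CAGATG was found in 5 of the 17 (29.4%), against 12.5% of tested genes, and TAATTA in 3 (17.6%), against 3.31%. The letters TGACG were found in 5 (29.4%), against 28.8%. TGACGTCA and CAAGGTCA were each found in 1 (5.88%), against 2.89% and 1.26%. The CArG box of serum response factor and GCGTGGGCG were found in none.

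Peptides of the arcuate nucleus, the feeding centre at the base of the hypothalamus, split. Pomc, the melanocortin precursor, ranged from 0.615 to 1.86 CPM (median 0.978) in PFC and 8.17 to 61.2 CPM (median 35.6) in hypothalamus, a log2 ratio of -4.97 ± 0.14 (SE, n = 8 mice, edgeR adjusted p = 1.15e-11); the gene is also strongly expressed in the pituitary, and hypothalamus replicate 1, which held pituitary transcripts, had 38.1 CPM, below the 41.4, 43.2 and 61.2 CPM of replicates 5, 6 and 8. Agrp, the antagonist at melanocortin receptors, ranged from 0.481 to 1.56 CPM (median 0.882) in PFC and 2.12 to 8.9 CPM (median 4.67) in hypothalamus, a log2 ratio of -2.46 ± 0.30 (SE, n = 8 mice, edgeR adjusted p = 1.17e-05). Npy, made by the same arcuate neurons as Agrp but also by cortical interneurons, went the other way: it ranged from 69 to 94.9 CPM (median 84) in PFC and 7.43 to 25.4 CPM (median 18.1) in hypothalamus, a log2 ratio of 2.29 ± 0.21 (SE, n = 8 mice, edgeR adjusted p = 8.21e-06), and all PFC libraries were above all hypothalamus libraries. Crh, the corticotropin-releasing hormone of the paraventricular nucleus and of cortical interneurons, was also called higher in PFC, with a log2 ratio of 0.81 ± 0.16 (SE, n = 8 mice, edgeR adjusted p = 0.00047), and its ranges overlapped. Nts, encoding neurotensin, was the peptide whose ratio varied most between mice: PFC values ran from 0 to 12.5 CPM, highest in replicate 6, and the log2 ratio was -3.77 ± 0.79 (SE, n = 8 mice, edgeR adjusted p = 0.00388). Without mouse 6 it was -4.37 (edgeR adjusted p = 0.00159). Npvf, the precursor of RFamide-related peptides, gave 1 read over all PFC libraries, a ratio of hypothalamus over PFC of 450 with an exact 95% interval of 80.3 to 17831 that covers counting error only.

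Of 15 peptides and granins made in many brain regions, 5 were called higher in PFC and 7 higher in hypothalamus (median -0.06). Cort, the cortistatin of cortical interneurons (4.58), Cck, encoding cholecystokinin (2.87), and Vip (2.29) led in PFC, and Cck ranged from 175 to 274 CPM (median 228) in PFC and 21 to 37.9 CPM (median 32.3) in hypothalamus. Scg2 (-1.71), Pnoc (-1.47) and Tac1 (-1.23) led in hypothalamus. Vgf, the most abundant member that was not called, had a log2 ratio of -0.06 ± 0.12 (SE, n = 8 mice, edgeR adjusted p = 0.67), and its highest PFC value, 226 CPM, was in replicate 3. Without mouse 3 it was called higher in hypothalamus, with a log2 ratio of -0.23 (edgeR adjusted p = 0.00451).

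Transcription factors of hypothalamic nuclei were low in PFC. Of 30 listed, 27 were tested and 26 called, all higher in hypothalamus, with a median log2 ratio of -5.10; Pou3f2, which cortical neurons also express, was the one not called (0.14). Nkx2-1, needed to form the ventral hypothalamus, ranged from 0 to 1.5 CPM (median 0.208) in PFC and 8.08 to 17.8 CPM (median 12.6) in hypothalamus, a log2 ratio of -4.89 ± 0.51 (SE, n = 8 mice, edgeR adjusted p = 2.12e-05). Without mouse 3 the ratio of Nkx2-1 was -5.49. Sim1 and Otp, needed for the paraventricular and supraoptic neurons that make oxytocin and vasopressin, had log2 ratios of -7.17 and -6.30, and the PFC values of both were highest in replicate 3, 0.319 and 1.31 CPM against at most 0.104 and 0.264 CPM in the other PFC libraries. Without mouse 3 the log2 ratio was -9.24 for Sim1 and -7.96 for Otp. Six6 gave 1 read over the 8 PFC libraries, with 0 to 0.0145 CPM (median 0) in PFC and 4.49 to 11.2 CPM (median 7.13) in hypothalamus, a ratio of hypothalamus over PFC of 1431 with an exact 95% counting interval of 256 to 56581. Nkx2-4 gave no read in PFC and was at least 189-fold higher in hypothalamus, taking 3 reads over the 8 PFC libraries as the floor; with this gene at its bound the list's median was -5.10. Six3 varied most between mice, from 0 to 10.7 CPM in PFC with its maximum in replicate 6, and had a log2 ratio of -4.26 ± 0.72 (SE, n = 8 mice, edgeR adjusted p = 0.0012). Its ratio was -4.88 without mouse 6. Without mouse 3 the list's median was -6.41 and 27 of 28 members tested were called higher in hypothalamus.

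Most transmitter genes were higher in hypothalamus. Of 24 genes of transmitter synthesis and transport 20 were tested, of which 3 were called higher in PFC and 16 higher in hypothalamus (median -1.78). The vesicular glutamate transporters differed in opposite directions: against the PFC excess of Slc17a7, Slc17a6 ranged from 12.1 to 21.4 CPM (median 17.8) in PFC and 248 to 380 CPM (median 343) in hypothalamus, a log2 ratio of -4.27 ± 0.09 (SE, n = 8 mice, edgeR adjusted p = 1.1e-12). Slc6a3, the dopamine transporter, ranged from 0 to 1.66 CPM (median 0.369) in PFC and 60.9 to 148 CPM (median 100) in hypothalamus, a log2 ratio of -7.81 ± 0.32 (SE, n = 8 mice, edgeR adjusted p = 2.36e-08), and Th, the rate-limiting enzyme of dopamine synthesis, had a log2 ratio of -4.31. Hdc, which makes histamine in the tuberomammillary nucleus, ranged from 0.351 to 1.14 CPM (median 0.887) in PFC and 27.8 to 69.5 CPM (median 48.9) in hypothalamus, a log2 ratio of -5.87 ± 0.19 (SE, n = 8 mice, edgeR adjusted p = 1.59e-10). The regions did not overlap in these genes. Chat (-2.88), Slc18a3 (-3.06) and Slc5a7 (-2.74), which make, load and recover acetylcholine, were called higher in hypothalamus with ranges that overlapped. Gad1, which makes GABA, was not called (log2 ratio 0.00 ± 0.07 SE, n = 8 mice, edgeR adjusted p = 0.986), while Gad2, the second GABA-producing enzyme, had -1.21 and the GABA transporter Slc6a11 -2.35. Tph2, the serotonin-synthesizing enzyme of raphe neurons, stayed under 2 CPM in every library, with 0.722 to 1.76 CPM (median 1.31) in PFC and 0.334 to 0.735 CPM (median 0.53) in hypothalamus.

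Interneuron and GABAergic lineage genes were divided between the regions. Of 22 tested, 7 were called higher in PFC and 10 higher in hypothalamus (median -0.21). Vip, which marks a cortical interneuron class, ranged from 47.3 to 86.6 CPM (median 67.6) in PFC and 8.53 to 22.6 CPM (median 13.1) in hypothalamus, a log2 ratio of 2.29 ± 0.16 (SE, n = 8 mice, edgeR adjusted p = 4.07e-07), and Pvalb, which marks fast-spiking interneurons, had 0.85. Calb2, encoding calretinin, ranged from 9.84 to 36.7 CPM (median 14) in PFC and 232 to 321 CPM (median 250) in hypothalamus, a log2 ratio of -4.01 ± 0.26 (SE, n = 8 mice, edgeR adjusted p = 1.5e-06), and Chodl had -3.28. Erbb4, the most abundant member not called, had -0.13. It was called at -0.16 without mouse 1 or mouse 3 and at -0.17 without mouse 5.

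Serotonin receptors were divided evenly: of 14 listed, 12 were tested and all 12 were called, 6 in each direction (median -0.12). Htr2a, encoding the 5-HT2A receptor, lies on chromosome 14 at 74640840 to 74709494 and Htr2c, encoding the 5-HT2C receptor, on chromosome X at 146962513 to 147197274, both on the plus strand (GRCm38). Htr2a ranged from 40.9 to 96.4 CPM (median 57.3) in PFC and 10.6 to 15.9 CPM (median 13.7) in hypothalamus, a log2 ratio of 2.15 ± 0.12 (SE, n = 8 mice, edgeR adjusted p = 1.82e-08). Htr2c ranged from 13.7 to 54.8 CPM (median 18.8) in PFC and 100 to 126 CPM (median 116) in hypothalamus, a log2 ratio of -2.38 ± 0.25 (SE, n = 8 mice, edgeR adjusted p = 3.52e-05). Neither gene overlapped between regions, and both differed in opposite directions by more than 4-fold. Per length, which allows levels of different genes to be compared, Htr2a stood at 11.4 FPKM in PFC and 2.46 FPKM in hypothalamus, and Htr2c at 2.65 and 12.4 FPKM, so that Htr2a was the receptor with the highest level in PFC and Htr2c the one with the highest level in hypothalamus. Htr7 followed in hypothalamus with 9.94 FPKM. The highest Htr2c values in PFC, 54.8 and 38.9 CPM, were in replicates 6 and 7, the libraries in which striatal genes were also highest, and their part in these values was not tested.

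Htr1a, encoding the 5-HT1A receptor, which psilocin also binds, was the receptor closest to equal: it ranged from 16.6 to 27.6 CPM (median 20.9) in PFC and 13.6 to 19.7 CPM (median 18.9) in hypothalamus, a log2 ratio of 0.26 ± 0.09 (SE, n = 8 mice, edgeR adjusted p = 0.0221), and the regions overlapped. The call was lost without mouse 1, 3, 4 or 7 (edgeR adjusted p = 0.0510 to 0.0914), with a ratio of 0.19 without mouse 3. Htr3a, the ion channel subunit of cortical interneurons (1.83), Htr1f (1.53), Htr6 (0.98) and Htr5a (0.69) were higher in PFC. Htr7 (-1.67), Htr4 (-2.10), Htr5b (-2.30), Htr1d (-1.50) and Htr1b (-0.49) were higher in hypothalamus. The ranges of Htr1b, Htr1d and Htr5b overlapped. Htr1d was not called without mouse 8 (-1.37, edgeR adjusted p = 0.0604). In each of the other 3 groups of mice 11 of the 12 were called in the same direction. Htr1a was called in none of them, with a log2 ratio of -0.37 in the saline 3 h mice (edgeR adjusted p = 0.0507), -0.14 in the psilocybin 3 h mice (edgeR adjusted p = 0.219) and 0.12 in the psilocybin 4 weeks mice (edgeR adjusted p = 0.538). Its sign in both 3 h groups was opposite to that at 4 weeks after saline.

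**Figure D4:**
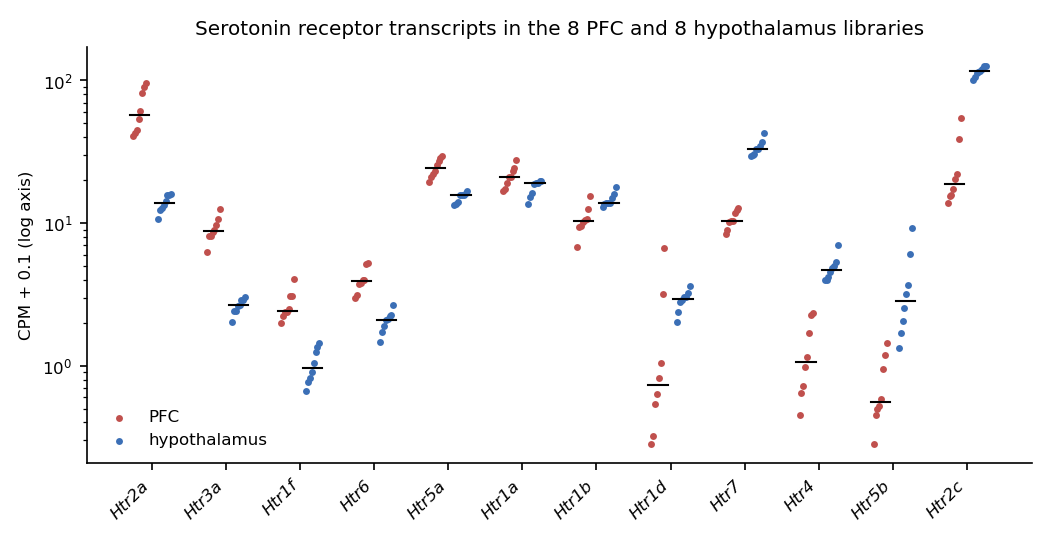
Level of the 12 tested serotonin receptor genes (x axis, ordered by their ratio) as CPM + 0.1 on a log axis, with 1 point per library, red for PFC and blue for hypothalamus, and a black bar at each median. Htr2a at the left lies between 40.9 and 96.4 CPM in PFC and between 10.6 and 15.9 CPM in hypothalamus, and Htr2c at the right shows the opposite order.

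Of 21 tested receptors for dopamine, histamine, noradrenaline and muscarinic acetylcholine signals, 12 were called higher in PFC and 7 higher in hypothalamus (median 0.58). Adra1d, an alpha-1 adrenergic receptor, ranged from 10.1 to 27.3 CPM (median 17.2) in PFC and 1.12 to 1.86 CPM (median 1.32) in hypothalamus, a log2 ratio of 3.62 ± 0.19 (SE, n = 8 mice, edgeR adjusted p = 3.79e-09), and Chrm1, the main cortical muscarinic receptor, had 3.44. Chrm5, the muscarinic receptor of dopamine neurons, ranged from 0 to 0.595 CPM (median 0.272) in PFC and 5.25 to 8.16 CPM (median 5.62) in hypothalamus, a log2 ratio of -4.32 ± 0.35 (SE, n = 8 mice, edgeR adjusted p = 3.09e-07), and Adra2b had -2.57. Hrh3, the histamine autoreceptor, had 0.02 and was not called. Drd2, encoding the D2 dopamine receptor, was called higher in hypothalamus (log2 ratio -2.25 ± 0.82 SE, n = 8 mice, edgeR adjusted p = 0.0437), but PFC replicate 6 held 77.3 CPM against at most 20.6 CPM in the other PFC libraries. The log2 ratio was -3.98 in mice 1 to 4, -0.78 in mice 5 to 8 (edgeR adjusted p = 0.600) and -2.88 without mouse 6 (edgeR adjusted p = 0.00603). The call of Drd2 was lost without any single mouse other than 6 and 7 (edgeR adjusted p = 0.0758 to 0.0962).

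Receptors of feeding hormones and peptides were mostly higher in hypothalamus. Of 27 tested, 16 were called higher there and 7 higher in PFC (median -0.95), and 19 did not overlap. Ghsr, the ghrelin receptor, ranged from 0 to 0.264 CPM (median 0.135) in PFC and 4.36 to 9.85 CPM (median 6.29) in hypothalamus, a log2 ratio of -5.55 ± 0.33 (SE, n = 8 mice, edgeR adjusted p = 5.79e-09). Calcr, the calcitonin receptor that also forms amylin receptors, had a log2 ratio of -5.51 and Brs3, the orphan bombesin receptor, -5.12; the highest PFC values of both, 3.22 and 0.972 CPM, were in replicate 3, against at most 1.14 and 0.120 CPM in the other PFC libraries. Without mouse 3 the log2 ratio was -6.82 for Calcr and -7.99 for Brs3. Glp1r and Mc4r, targets of weight-loss drugs, had log2 ratios of -4.26 and -1.73. Among the 7 called higher in PFC, Cckbr, the cholecystokinin receptor of the brain, ranged from 55.6 to 76.4 CPM (median 65.4) in PFC and 5.34 to 7.81 CPM (median 6.52) in hypothalamus, a log2 ratio of 3.32 ± 0.07 (SE, n = 8 mice, edgeR adjusted p = 1.1e-12), Crhr1 had 1.64, and Mchr1, the receptor of the hormone encoded by Pmch, had 1.19. Lepr, the leptin receptor, which the arcuate nucleus is known for, was called higher in PFC (log2 ratio 0.96 ± 0.28 SE, n = 8 mice, edgeR adjusted p = 0.0113), with 6.26 to 16 CPM (median 8.33) in PFC and 3.1 to 11.1 CPM (median 3.9) in hypothalamus, ranges that overlapped. Insr (-0.04) was not called.

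Among 11 tested nuclear hormone receptors, 3 were called higher in PFC and 4 higher in hypothalamus (median 0.04). Esr1 and Esr2, the oestrogen receptors, had log2 ratios of -1.80 ± 0.15 (SE, n = 8 mice, edgeR adjusted p = 1.56e-07) and -2.14 ± 0.32 (SE, n = 8 mice, edgeR adjusted p = 5.84e-05). Thrb and Thra, the thyroid hormone receptors, had 1.27 and 0.49. Nr3c1, the glucocorticoid receptor, was not called (log2 ratio 0.04 ± 0.06 SE, n = 8 mice, edgeR adjusted p = 0.573).

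Receptors for glutamate and GABA were divided between the regions. Of 24 tested glutamate receptors 11 were called higher in PFC and 10 higher in hypothalamus (median 0.00). Grin2a, an NMDA receptor subunit of mature forebrain synapses, ranged from 131 to 293 CPM (median 198) in PFC and 34.5 to 58.6 CPM (median 43.2) in hypothalamus, a log2 ratio of 2.23 ± 0.12 (SE, n = 8 mice, edgeR adjusted p = 1.94e-08), and Gria3, an AMPA receptor subunit, had 1.95; Grin2d, another NMDA receptor subunit, had -1.73 ± 0.11 (SE, n = 8 mice, edgeR adjusted p = 8.23e-09). Gria4 (-0.08) was not called, except without mouse 1 (-0.14). Of 15 GABA-A subunits tested 7 were called higher in PFC and 6 higher in hypothalamus (median 0.18), and within mice 5 to 8 4 and 5. Gabrd, the subunit of extrasynaptic receptors, ranged from 85.2 to 111 CPM (median 90.1) in PFC and 9.45 to 30.7 CPM (median 21.3) in hypothalamus, a log2 ratio of 2.26 ± 0.18 (SE, n = 8 mice, edgeR adjusted p = 2.94e-06). Gabrq and Gabre, encoding the theta and epsilon subunits and both on the X chromosome, had log2 ratios of -5.61 ± 0.54 (SE, n = 8 mice, edgeR adjusted p = 4.16e-05) and -5.52 ± 0.59 (SE, n = 8 mice, edgeR adjusted p = 6.06e-05). PFC replicate 3 held 11.4 CPM of Gabrq, against at most 1.20 CPM in the other PFC libraries. It held 2.89 CPM of Gabre, against at most 0.791 CPM. Without mouse 3 the ratios were -6.55 and -6.69.

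Immediate early and activity-induced genes were higher in PFC. Of 20 tested, 17 were called, all higher in PFC, with a median log2 ratio of 1.20; 11 did not overlap between regions. In 16 of the 20 the highest PFC value was in replicate 3, among them Nr4a1 with 109 CPM against at most 47.5 CPM in the other PFC libraries and Junb with 36.3 against at most 19.0 CPM. Without mouse 3, 17 were called higher in PFC and the median was 1.07. Egr3, a zinc finger factor induced by synaptic activity, ranged from 96.5 to 254 CPM (median 158) in PFC and 2.29 to 12.8 CPM (median 3.66) in hypothalamus, a log2 ratio of 5.14 ± 0.41 (SE, n = 8 mice, edgeR adjusted p = 1.02e-05), and its highest hypothalamus value was in replicate 6. Egr4 (2.97), Homer1 (2.78), a scaffold of postsynaptic glutamate receptors, Egr1 (2.48) and Fosb (2.24) followed. Arc, a regulator of AMPA receptor trafficking, ranged from 19.9 to 253 CPM (median 36.4) in PFC and 14.3 to 20.4 CPM (median 17.8) in hypothalamus, a log2 ratio of 1.36 ± 0.45 (SE, n = 8 mice, edgeR adjusted p = 0.0312); its PFC values were 253 CPM in replicate 3, 101 CPM in replicate 5 and 19.9 to 38.2 CPM in the other 6. Without mouse 3 its log2 ratio was 1.00 (edgeR adjusted p = 0.0209). The call of Arc was lost without mouse 4, 5, 6 or 8 (edgeR adjusted p = 0.0519 to 0.0727). Fos itself was not called (log2 ratio -0.08 ± 0.16 SE, n = 8 mice, edgeR adjusted p = 0.662), and neither were Jun (0.01) nor Ier2 (0.28). The called count was 14 of 20 in mice 1 to 4, 17 in mice 5 to 8 and 15 without mice 1, 3, 6 and 7, and of the 17 called genes 17, 17 and 15 were called the same way in the saline 3 h, psilocybin 3 h and psilocybin 4 weeks mice.

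Many genes of this list carry cAMP response elements, the binding sequences of CREB, upstream of their starts, and 4 promoters are shown for that reason; Nr4a1, Npas4 and Fosb were called higher in PFC and Fos was not. The 250 bases before each RefSeq start (GRCm38.p6) are given 5′ to 3′ on the gene's strand, with the core letters TGACG, or CGTCA where they read on the other strand, in capitals.
Nr4a1, chr15:101266596-101266845, plus strand: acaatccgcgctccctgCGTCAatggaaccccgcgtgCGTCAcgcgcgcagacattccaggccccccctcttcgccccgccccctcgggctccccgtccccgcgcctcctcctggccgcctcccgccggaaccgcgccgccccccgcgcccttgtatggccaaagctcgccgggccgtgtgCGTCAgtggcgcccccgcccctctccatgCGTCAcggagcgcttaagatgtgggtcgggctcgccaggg
Npas4, chr19:4989972-4990221, minus strand: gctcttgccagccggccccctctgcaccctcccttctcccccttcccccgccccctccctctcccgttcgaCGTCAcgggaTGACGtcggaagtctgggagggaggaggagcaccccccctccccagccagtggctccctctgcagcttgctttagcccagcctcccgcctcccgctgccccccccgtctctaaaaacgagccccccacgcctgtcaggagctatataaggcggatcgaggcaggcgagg
Fosb, chr7:19310046-19310295, minus strand: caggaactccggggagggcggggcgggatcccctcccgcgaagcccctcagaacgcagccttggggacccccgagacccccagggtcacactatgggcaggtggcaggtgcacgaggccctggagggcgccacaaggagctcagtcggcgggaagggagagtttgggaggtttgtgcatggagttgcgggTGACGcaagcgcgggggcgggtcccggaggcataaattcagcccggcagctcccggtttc
Fos, chr12:85473640-85473889, plus strand: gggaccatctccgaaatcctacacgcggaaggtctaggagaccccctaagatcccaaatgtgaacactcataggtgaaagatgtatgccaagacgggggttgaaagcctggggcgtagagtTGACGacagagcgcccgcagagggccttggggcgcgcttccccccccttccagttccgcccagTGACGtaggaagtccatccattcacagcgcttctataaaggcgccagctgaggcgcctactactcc
The core was found on either strand in the promoters of 12 of the 15 list members that had one (80%), against 28.8% of the 12289 tested genes with a promoter and 19.8% of all 27025 genes in the RefSeq set. The full palindrome TGACGTCA, which contains the core, was found in 2 of the 15 (13.3%, Btg2 and Dusp1), against 2.89% of tested genes and 1.77% of all. Of 6 further motifs searched on both strands, the CArG box of serum response factor was found in 1, CAGATG in 1 and TATAAA in 2 (1.4%, 12.5% and 8.29% of tested genes, 1.62%, 16.3% and 14.3% of all). TAATTA, GCGTGGGCG and CAAGGTCA were found in none (3.31%, 1.18% and 1.26% of tested genes, 5.65%, 0.622% and 1.51% of all). A match describes these letters only.

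Of 18 clock genes, 8 were called higher in PFC and 4 higher in hypothalamus (median 0.14), and within mice 5 to 8 5 in each direction; all tissue was collected in the morning. Npas2, a partner of BMAL1 in the forebrain clock, ranged from 47.5 to 62.5 CPM (median 53.7) in PFC and 12.8 to 18.3 CPM (median 15) in hypothalamus, a log2 ratio of 1.82 ± 0.07 (SE, n = 8 mice, edgeR adjusted p = 7.56e-11). Rora and Bhlhe41 led in hypothalamus, with -1.06 and -0.92, and Clock (0.10) was not called. Per2 (-0.21, edgeR adjusted p = 0.0533) was not called with all mice but was without mouse 3 (-0.33, edgeR adjusted p = 0.000788).

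Bhlhe40 and Per2, both clock genes, were the 2 genes whose region gap differed between the saline mice killed at 4 weeks and the 7 saline mice killed at 3 h with both libraries (0.0111% of 18093 genes tested, edgeR, time by region term). Bhlhe40, a repressor of clock and activity-induced genes, had median levels of 195 CPM in PFC and 71.3 CPM in hypothalamus at 3 h and 99.6 and 78.5 CPM at 4 weeks, a difference in log2 ratio of -1.13 (4 weeks minus 3 h, edgeR adjusted p = 0.00323). The ranges of the 2 PFC groups, 140 to 253 CPM and 77.6 to 128 CPM, did not overlap. Per2, a core repressor of the clock, had median PFC levels of 40.1 CPM at 3 h and 18.2 CPM at 4 weeks, against 24.9 and 22.3 CPM in hypothalamus, a difference in log2 ratio of -0.83 (edgeR adjusted p = 0.0385). The hypothalamus ranges of Bhlhe40 and of Per2 overlapped between the times. At an unadjusted p of 0.05, 1236 genes passed. Without the filter on low counts 356 genes passed the adjusted test, and 10 passed by a voom fit without extraction pool, Bhlhe40 and Per2 among them each time. The time since injection, the age at death and the day of collection cannot be told apart here.

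Genes expressed by all neurons were divided. Of 15, 9 were called higher in PFC and 4 higher in hypothalamus (median 0.21). Rbfox3, which encodes NeuN, ranged from 265 to 316 CPM (median 284) in PFC and 83.7 to 113 CPM (median 91.8) in hypothalamus without overlap and was called higher in PFC, and Snap25, a vesicle fusion protein, had 1.28. Gap43, a growth cone protein that stays high in parts of the adult hypothalamus, had -1.10 and Nefh -0.76. Stmn2 (-0.03) was not called.

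Oligodendrocyte genes were higher in hypothalamus, by an amount that differed between the mice of the extraction pools. Of 20 tested, 18 were called higher in hypothalamus and none higher in PFC (median -0.93), although none passed the 2-fold test. Ugt8a, which makes the myelin lipid galactosylceramide, ranged from 28.6 to 55.6 CPM (median 38.8) in PFC and 67.0 to 112 CPM (median 88.3) in hypothalamus, a log2 ratio of -1.14 ± 0.13 (SE, n = 8 mice, edgeR adjusted p = 1.83e-05), and the groups did not overlap. Ermn had -1.13, and Pdgfra (-0.14) and Cspg4 (-0.15), markers of the precursor cells, were not called. Pdgfra was called at -0.18 without mouse 5 or mouse 7 and Cspg4 at -0.26 without mouse 3. Summed over the list, hypothalamus libraries held 7225 to 11014 CPM. The PFC libraries fell into separate ranges by extraction pool, 2896 to 3372 CPM in mice 1 to 4 and 5765 to 6545 CPM in mice 5 to 8. This was not particular to oligodendrocyte genes: summed PFC levels of microglia genes were 604 to 721 and 949 to 976 CPM. Those of astrocyte genes were 6589 to 8044 and 8723 to 10554 CPM. The median log2 ratio of the oligodendrocyte list was -1.37 within mice 1 to 4, with 19 genes called, and -0.54 within mice 5 to 8, with 18 called. The change of the ratio between mice 1 to 4 and mice 5 to 8 was tested for all genes, and 31 passed (0.181%), among them 6 of the 20 oligodendrocyte genes, all with a smaller difference in mice 5 to 8. Ugt8a had a log2 ratio of -1.53 in mice 1 to 4 and -0.79 in mice 5 to 8. The extraction pool, the cages and any difference in dissection between these mice cannot be told apart. Without mice 1, 3, 6 and 7, 12 of the 20 were called and the median was -0.89.

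Other glia were divided. All 14 microglia genes were called higher in PFC, by a median of 0.64 on the log2 scale, led by Aif1 (log2 ratio 0.97 ± 0.11 SE, n = 8 mice, edgeR adjusted p = 5.4e-06), Siglech (0.87) and P2ry12 (0.87); 5 did not overlap, and 13 were called within mice 1 to 4 and 14 within mice 5 to 8. The median of the microglia genes was 0.49 within mice 1 to 4 and 0.83 within mice 5 to 8. Of 15 astrocyte genes 11 were called higher in hypothalamus and 2 higher in PFC (median -0.29). Within mice 1 to 4 these counts were 11 and 1 (median -0.41), and within mice 5 to 8 they were 7 and 4 (median -0.14). Agt, encoding angiotensinogen, ranged from 4.63 to 22.9 CPM (median 8.54) in PFC and 245 to 352 CPM (median 273) in hypothalamus, a log2 ratio of -4.94 ± 0.29 (SE, n = 8 mice, edgeR adjusted p = 7.22e-07), and Itih3 had -3.34. The glutamate transporter genes Slc1a2 (log2 ratio 1.28 ± 0.06 SE, n = 8 mice, edgeR adjusted p = 1.09e-09) and Slc1a3 (0.27) went the other way, and the list's summed level was 6589 to 10554 CPM in PFC and 5761 to 7526 CPM in hypothalamus, ranges that overlapped. Aldoc (0.07) was not called. Of 21 endothelial, mural and meningeal genes 20 were called higher in PFC (median 0.74), with Slc6a13 (2.01), Lum (1.42) and Col3a1 (1.39), genes of leptomeningeal fibroblasts, in the lead and Acta2 (0.08) not called; 1 of the 21 did not overlap. Within mice 1 to 4, 13 of the 21 were called, and within mice 5 to 8, 18.

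The hypothalamus lines the third ventricle, and genes of the ventricle wall were divided. Of 13 tested ependymal and tanycyte genes, 8 were called higher in hypothalamus, 2 higher in PFC and 3 not called (median -1.72). Within mice 5 to 8, where 15 members were tested, 11 were called higher in hypothalamus and 2 higher in PFC (median -2.48). Their summed level was 229 to 389 CPM in PFC and 173 to 377 CPM in hypothalamus, ranges that overlapped. Ccdc153, a gene of ciliated cells, ranged from 0 to 1.04 CPM (median 0.266) in PFC and 11.2 to 33.5 CPM (median 26.4) in hypothalamus, a log2 ratio of -5.79 ± 0.40 (SE, n = 8 mice, edgeR adjusted p = 9.61e-07), and Tmem212 and Gpr50 had -5.73 and -5.77. Without mouse 3 Ccdc153 had -6.44 and Gpr50 -6.35. Dio2, which activates thyroid hormone in tanycytes and also in astrocytes, was higher in PFC (log2 ratio 3.38 ± 0.10 SE, n = 8 mice, edgeR adjusted p = 1.55e-11), and Vim (-0.25) was not called, except without mouse 5 (-0.31). Of 11 tested choroid plexus genes 6 were called, all higher in hypothalamus (median -1.31), led by Otx2 (-4.42), Prlr (-4.34), the prolactin receptor, and Clic6 (-3.63). Without mouse 3, 2 of the 11 were called higher in PFC and 6 higher in hypothalamus. Within mice 1 to 4, 6 of 12 tested were called, all higher in hypothalamus (median -3.17). Within mice 5 to 8, 3 of 11 were called higher in PFC and 6 higher in hypothalamus (median -0.87). Ttr, the transthyretin gene by which plexus is recognized, was not called (-0.99, -0.25 without mouse 3, -1.62 without mouse 6 and -1.87 without mouse 8); hypothalamus replicate 3 held 9984 of its reads, against at most 1111 in another hypothalamus library. Enpp2 (0.10) reached 903 CPM in that library, against at most 284 CPM. It was called higher in PFC without mouse 3 (0.31, edgeR adjusted p = 0.00113).

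Markers of neighbouring regions were checked on both sides. All 10 thalamic genes were called higher in hypothalamus (median -2.47), led by Gbx2 (-5.45), Tcf7l2 (-4.41) and Synpo2 (-3.21); their sum was 461 to 914 CPM in hypothalamus and 87.7 to 139 CPM in PFC, and the part of adjoining thalamus in the hypothalamic values was not tested. For Gbx2, 43.5% of the exonic length lies opposite another gene. Of 15 striatal genes 7 were called higher in PFC and 3 higher in hypothalamus (median 0.35). The 3 became 0 without mouse 1 and without mouse 3, 5 without mouse 6, 7 within mice 1 to 4 and 0 within mice 5 to 8. The median was -0.15 within mice 1 to 4, 0.64 within mice 5 to 8 and -0.12 without mice 1, 3, 6 and 7, so it changed sign with the libraries. Ppp1r1b, which encodes DARPP-32, was 518 CPM in PFC replicate 6 and 58.3 to 204 CPM in the other PFC libraries, with a log2 ratio of 1.76 with and 1.71 without mouse 6. Syndig1l had -1.99 ± 0.66 (SE, n = 8 mice, edgeR adjusted p = 0.0311) and -2.52 without mouse 6. The call of Syndig1l was lost without any single mouse other than 6 and 7 (edgeR adjusted p = 0.0534 to 0.0736). Adcy5 (-0.01) was not called.

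Of 4 tested olfactory bulb genes 1 was called in each direction (median -0.02), Doc2g (1.00) and Eomes (-2.15); PFC replicate 5 held 7.25 and 4.81 CPM of them, against at most 2.59 and 0.414 CPM in the other PFC libraries. Without mouse 5 the log2 ratio was 0.61 for Doc2g (edgeR adjusted p = 0.0279) and -3.20 for Eomes (edgeR adjusted p = 9.15e-06). The call of Eomes was lost without any other single mouse (edgeR adjusted p = 0.0793 to 0.118). Cdhr1 (0.24) was not called. Within mice 1 to 4, 0 olfactory bulb genes were called higher in PFC and 3 higher in hypothalamus (median -0.98). Within mice 5 to 8 these counts were 2 and 0 (median 0.82), so the list's median changed sign. Only 2 of 10 pituitary genes were tested, since the others had too few counts outside mouse 1; both, Tbx19 (-4.50, and -4.38 without mouse 1) and Tshb (-1.07), were called higher in hypothalamus. None of 5 red blood cell genes was called by edgeR (median 0.29; Hbb-bs 0.39), 0 at an unadjusted p of 0.05 and 0 by DESeq2. Without the filter on low counts 2 of the 5 were called and 3 had an unadjusted p under 0.05, and all 5 were called higher in PFC within mice 5 to 8 and without mice 1, 3, 6 and 7. None of 39 Hox genes, which mark hindbrain and spinal cord, had enough counts to be tested. Of 8 tested mitochondrially encoded protein genes 7 were called higher in PFC (median 0.55), with mt-Cytb at 0.73, mt-Co1 at 0.66 and mt-Nd4 at 0.65; mt-Nd3 (-0.28) was not called, none of the 8 passed the 2-fold test, and 3 were called within mice 1 to 4.

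Among genes with at least 10 CPM in the higher region, Gm11549 led in PFC, with 36.1 to 66.4 CPM (median 54.4) in PFC and 0.0751 to 0.568 CPM (median 0.296) in hypothalamus and a log2 ratio of 7.36 ± 0.17 (SE, n = 8 mice, edgeR adjusted p = 3.34e-12). Igfn1 ranged from 31.3 to 64.9 CPM (median 52.3) in PFC and 0.0817 to 1.93 CPM (median 0.308) in hypothalamus, a log2 ratio of 7.01 ± 0.33 (SE, n = 8 mice, edgeR adjusted p = 4.84e-08), and C730002L08Rik, a non-coding transcript, had 6.22. Serpinb8 (5.72), Dkkl1 (5.48), the receptor Mas1 (5.46), which binds angiotensin 1-7, and the guanylate cyclase Gucy2g (5.36) completed the first 10 together with Emx1, Neurod6 and Neurod2. In hypothalamus the first 10 were Pmch, Hcrt, Slc6a3, Avp, Oxt, Sim1, Shox2 (-6.96), Irs4 (-6.67), Otp and Chrna6 (-5.93). Irs4, an insulin receptor substrate encoded on the X chromosome, ranged from 0.181 to 15.6 CPM (median 0.39) in PFC and 101 to 183 CPM (median 118) in hypothalamus, with the highest PFC value in replicate 3; without mouse 3 its log2 ratio was -8.46.

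The make-up of the genes beyond 2-fold is given for each side as a description, with no test. Long non-coding RNAs made up 19.1% of those higher in PFC, 8.66% of those higher in hypothalamus and 10.6% of the remaining genes. Of 569 tested genes on the X chromosome, 70 were beyond 2-fold higher in hypothalamus (12.3%, against 5.8% of all genes) and 15 higher in PFC (2.64%, against 6.06%). Htr2c, Gabrq, Gabre, Irs4, Brs3 and Gpr50, described above, are among the X-linked genes higher in hypothalamus. The median level over both regions was 14.6 CPM for the PFC side, 4.57 CPM for the hypothalamus side and 20.1 CPM for the rest, so the hypothalamic set held more genes of low level.

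Among called genes the ratio varied little between mice, which the test itself favours because genes of low spread pass it more easily. Over 7238 called genes of at least 10 CPM the median SD of the log2 ratio over mice was 0.19, and 8065 genes (47.1% of those tested) were called and differed in the same direction in all 8 mice. Drd2, Nts and Six3 varied most, all 3 with their highest PFC value in replicate 6.

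The same comparison in the other mice of the series shares no animal with the 8 described here, although their RNA went through the same extraction pools. Among 7 saline mice killed at 3 h, 9113 genes (54.4%) were called and 1950 (11.6%) passed the 2-fold test. Among 8 psilocybin mice at 3 h the counts were 10235 (60.7%) and 2144 (12.7%), and among 7 psilocybin mice at 4 weeks 7298 (42.6%) and 1618 (9.45%). The count at 4 weeks after psilocybin depended on 1 mouse: without replicate 5 of that group 9265 of 16710 tested genes were called. Of the genes beyond 2-fold in the saline 4 weeks mice and tested in both, 1939 of 1939, 1950 of 1951 and 1974 of 1974 had the same direction, and 84.3%, 88.0% and 75.9% again passed the 2-fold test. Of the genes passing it in those mice, 85.5%, 81.6% and 95.2% also passed it in the saline 4 weeks mice. Across 16432 genes tested in all 4 groups, 1335 of the 1890 genes beyond 2-fold at 4 weeks after saline passed in the same direction in every group. The hypothalamic neuropeptide list had medians of -5.88, -5.80 and -5.59, the oligodendrocyte list -1.16, -0.88 and -0.90, and the microglia list 0.88, 0.92 and 0.51. The striatal list, which changed sign between mice 1 to 4 and mice 5 to 8, had medians of -0.25, 0.06 and -0.09.

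**Figure D5:**
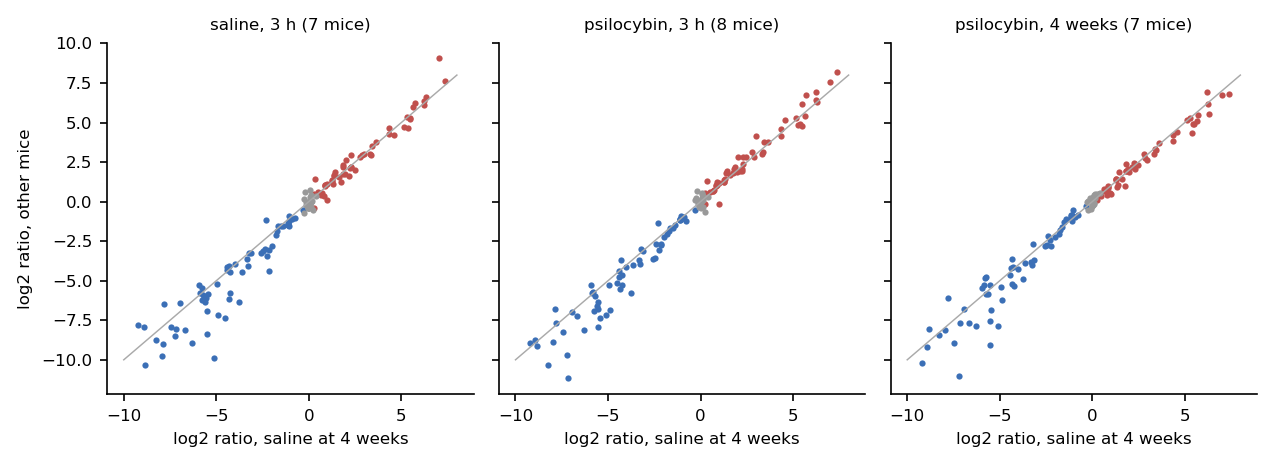
Log2 ratio of PFC over hypothalamus in each of the 3 other groups of mice (y axes) against the ratio in the saline 4 weeks mice (x axes) for the named genes, with red points called higher in PFC, blue points called higher in hypothalamus and grey points not called in the saline 4 weeks mice; the grey line marks equal ratios. Called genes lie in the same quadrants in all 3 panels apart from single genes, among them Htr1a and Doc2g (1.00, and -0.16 in the psilocybin 3 h mice). The points for genes lowest in PFC scatter most.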

How the data were processed

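The deposited table holds raw read counts per gene. Per the labels and the study's methods, the authors demultiplexed 52-bp paired reads with bcl2fastq 2.20.0, aligned them with STAR 2.7.2b to GRCm38 with GENCODE vM25 and counted them with featureCounts 1.6.2; only pairs with both ends on the same strand were counted, and whether counting used the library's strand is not given in the sources used here. PFC and hypothalamus libraries with the same number come from the same mouse, since treatment, time and cage match; deviations from the region means correlated by 0.106 on average within a mouse (-0.119 to 0.345), and each mouse is a separate animal. Counts were TMM-scaled, genes with too few counts were dropped (filterByExpr, minimum count 10), and region was tested with mouse as a block by edgeR 4.0.16's quasi-likelihood test (R 4.3.3) with Benjamini-Hochberg adjustment at 0.05. The 2-fold test is glmTreat at a log2 threshold of 1. CPM are counts scaled to these libraries, and FPKM are CPM divided by the exonic length. Extraction pool was not a covariate because it is nested in region. On simulated counts with 8 mice the test recovered 40 of 50 genes changed 1.5-fold, 49 of 50 changed 2-fold and 50 of 50 changed 4-fold, with 9 false calls among 16802 unchanged genes. The simulation held few changed genes, a fixed dispersion, no pool effect and no library that stood apart, so these rates need not hold for the data. Alternatives used RLE scaling, no or a stricter count filter, no replicate block, DESeq2 1.42.0, a voom fit in limma 3.58.1 with the study's quality weights and duplicateCorrelation by mouse, but on only the libraries compared and without its extraction pool term, and subsets of mice.

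Members and gene lists were chosen with earlier results of these data known. Named genes are, per list, up to 3 called members with the largest ratio, up to 2 called in the opposite direction and the most abundant uncalled one; the 10 largest per direction with at least 10 CPM among genes beyond 2-fold; Htr2a, Htr2c, Htr1a, Slc17a7, Slc17a6, Nkx2-1, Oxt, Avp, Agrp and Hcrt; the 3 called genes most variable between mice; and genes whose region gap differed between times. Other list members were named after their values were seen. Some genes that these rules name are not reported here, although they stay in the counts, list sums and medians, and were left out of the search for libraries far from the others. Libraries differed by more than sampling noise, with a chi-square per degree of freedom of at least 4.01 over 56 pairs of the same region.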

Additional observations from a re-analysis of the deposited data

Results flagged for a closer look

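Single libraries lay far from the other 7 of their region by Dixon's criterion in 39 of 268 gene and region combinations. The criterion's rate of 1 in 20 holds for independent normal values. These combinations share libraries and some genes were named because they varied most, so the count cannot be set against that rate. In PFC replicate 3 these were genes that are high in hypothalamus, with 7.73 CPM of Oxt, 2.36 CPM of Avp, 15.6 CPM of Irs4, 11.4 CPM of Gabrq, 2.89 CPM of Gabre, 3.22 CPM of Calcr, 0.972 CPM of Brs3, 1.31 CPM of Otp, 0.319 CPM of Sim1, 22.9 CPM of Agt and 15.2 CPM of Grin2d, and in addition 226 CPM of Vgf. The ratios of Oxt, Avp, Irs4, Gabrq, Gabre, Calcr, Brs3, Otp and Sim1 were larger without mouse 3. Six6 in the same library (0.0145 CPM) and Npvf in PFC replicate 5 (0.0529 CPM) met the criterion only because each gave 1 read there and none in the other PFC libraries.

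In PFC replicate 6 the striatal genes Ppp1r1b (518 CPM), Adcy5 (574 CPM), Drd2 (77.3 CPM) and Syndig1l (74.3 CPM) stood apart, together with Pcp4 (190.1 CPM), Gabrd (111 CPM), Nts (12.5 CPM) and Six3 (10.7 CPM). The hypothalamus library of the same mouse stood apart for Ppp1r1b (126 CPM), Adcy5 (306 CPM), Chrm1 (33.7 CPM) and Egr3 (12.8 CPM). The part of striatal tissue in these values was not tested.

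In hypothalamus replicate 3 Enpp2 reached 903 CPM and Clic6 46.6 CPM, both choroid plexus genes, and Cdhr1 11.2 CPM and Igfn1 1.93 CPM. Hypothalamus replicate 8 stood apart for Irs4 (183 CPM), Calcr (40.9 CPM), Esr1 (26.1 CPM) and Chodl (15.2 CPM) and hypothalamus replicate 7 for Calb2 (321 CPM). PFC replicate 5 stood apart for the olfactory bulb genes Doc2g (7.25 CPM) and Eomes (4.81 CPM), PFC replicate 4 for Acta2 (9.22 CPM), and PFC replicate 2 for Tshb (2.28 CPM).

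The region gap of Bhlhe40 (-1.13) and of Per2 (-0.83) differed between the saline mice at 4 weeks and at 3 h by edgeR's test of the difference.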

How the results depend on the processing

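None of the 116 called named genes changed sign in any setting run. Of 2740 pairs of a named gene and a setting, 2643 kept their side of the threshold, 51 lost the call, 46 gained one and 0 reversed, and 102 of the called genes kept the call in every setting that tested them. Htr1a and Eomes lost it most often, in 10 settings each, followed by Drd2 in 9 and Syndig1l in 8. Over all genes, the direction with more calls depended on the setting. With RLE scaling 5337 genes were higher in PFC and 5514 higher in hypothalamus, and with DESeq2 5221 and 5435. The voom fit gave 6079 and 5463, with more in PFC as in the main fit. Without each mouse in turn 10229 to 10808 genes were called, 5365 to 5607 higher in PFC and 4773 to 5443 higher in hypothalamus, and 1926 to 2114 passed the 2-fold test, 986 to 1071 and 937 to 1043 by direction. Without the count filter 1494 genes passed the 2-fold test higher in hypothalamus, and with at least 10 counts in every library 1112 passed it, 680 higher in PFC and 432 higher in hypothalamus; the latter filter removes genes that are near 0 in one region. The fit with no replicate block called 10781 genes and 2000 beyond 2-fold; the pairing changed no other count by over 1.5 times. For the region gap between 4 weeks and 3 h, 356 genes passed without the filter, of which 294 had also been tested with it, and 10 passed by the voom fit; the cause was not tested, and Bhlhe40 and Per2 passed in all 6 settings run. Leaving out mice 1, 3, 6 and 7 together was chosen after seeing the data. The settings moved 66 of 1160 list counts by over 1.5 times or to or from 0. Depth limits genes near 0 in PFC, whose ratios rest on a few reads.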
